A study of Mus musculus with 30 samples.

Results

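Total RNA of the muscularis externa (ME), the muscle layer of the small bowel with the nerve plexus it holds, was compared between naïve mice and mice taken 24 h after intestinal manipulation (IM24h), across all 24601 genes of the total RNA count table. The 7 libraries, 3 naïve and 4 at IM24h, were chosen by their group entry and are part of 14 libraries of total RNA in a series of 30 samples. Both groups were male mice of 10 to 12 weeks that carried the Rpl22 allele with an HA tag (B6N.129 Rpl22tm1.1Psam/J), which marks ribosomes only in cells with an active Cre recombinase, and the libraries were made from the cleared lysate before any pull-down. The labels give naïve libraries the cross with B6.Cg-Tg73.12Mvs/J(Gfap-cre), a Cre driven by the promoter of the glial gene Gfap, and IM24h libraries the cross with B6 Tg(Sox10-icre/ERT2)388Wdr/J, a Cre driven by the promoter of the glial gene Sox10 that needs tamoxifen. The study's methods describe the Sox10 cross and no Gfap-cre mouse line, so that the line of the naïve libraries rests on the labels alone, and Gfap-cre and Sox10 line mean below what the labels say. For inducible lines the study describes injections on 3 consecutive days that ended 1 week before the experiment, so that labelled line, tamoxifen and surgery cannot be told apart in this comparison. For the manipulation the abdomen was opened under isoflurane with tramadol as pain relief, and the small bowel was rolled with moist cotton swabs toward the caecum, whereas naïve mice had no surgery. The study counts replicates of muscularis RNA as mice and lysed the tissue of each mouse, so that libraries are read as separate mice. Whether both groups were prepared and sequenced together is not given in the sources used here.

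Handling of the bowel during abdominal surgery is followed by postoperative ileus, a transient loss of propulsion. Macrophages that reside between the muscle layers are known to react within hours, and monocytes and neutrophils then enter the muscle from the blood, drawn by chemokines of the CCL and CXCL families. Cytokines such as interleukin 1 and interleukin 6, prostaglandins made by the enzyme Ptgs2, and nitric oxide are known to act on smooth muscle and on the enteric neurons and glia that control it.

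At IM24h, genes of neutrophils and monocytes, of inflammatory signals and of DNA replication rose, and genes of contraction, fat and respiration fell. Lists and their members were chosen with earlier results of these data known, so that the shares given here are not independent evidence. By the test described below, 22 of 24 monocyte and 16 of 27 replication genes rose, against 15.6% of all genes tested. Of the 24 monocyte genes 2 had at most 3 counts in every naïve library. Of neutrophil and cytokine genes 12 of 14 and 11 of 14 rose, and 10 and 3 of these members had at most 3 counts in every naïve library. In the other direction 18 of 24 contractile, 10 of 12 adipocyte and 50 of 87 respiratory chain genes fell, against 13.4% of all genes tested. Without TMM factors, by library totals alone, 11 contractile, 8 adipocyte and 14 respiratory chain genes fell and 1, 0 and 9 rose, and 24 monocyte and 24 replication genes rose. Saa3, Ccl2, S100a9 and Vip rose, and Tpm2, Mylk and Chrm2 fell.

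Total counts ranged from 6603125 to 9862124 in naïve libraries (median 9284139) and from 6919904 to 8537005 at IM24h (median 8259762). AY036118, a long non-coding RNA inside an rRNA gene (chr17:39847113-39848035, mm10), took 16.1% to 33.5% of naïve counts and 1.33% to 6.501% at IM24h (two-sided p = 0.0286 by exact permutation, a value below which 3 against 4 libraries cannot go). Mitochondrially encoded genes took 13.7% to 17.98% against 10.03% to 14.2% (exact permutation p = 0.0857). Genes listed with 1 to 4 counts numbered 4074 to 4276 in naïve libraries and 1642 to 2121 at IM24h, and the share of AY036118 in libraries taken 3 h after manipulation (IM3h, labelled Gfap-cre) was 24.1% to 25.1% and at 72 h (IM72h, labelled Sox10) 2.34% to 3.69%. The part of these library values in the results below was not tested. Between libraries, Pearson correlations of log2 levels across genes, which are not independent of each other, were 0.966 to 0.978 within naïve, 0.894 to 0.947 within IM24h and 0.830 to 0.895 between groups. Gm15536, at 47.8, 41.8 and 38.5 CPM in naïve libraries, had 0 counts in all 8 libraries labelled with the Sox10 line and at least 10 counts in all 6 labelled Gfap-cre, and 9 genes, F7 among them, had the opposite pattern with at most 3 counts in every library labelled Gfap-cre.

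**Figure D1:**
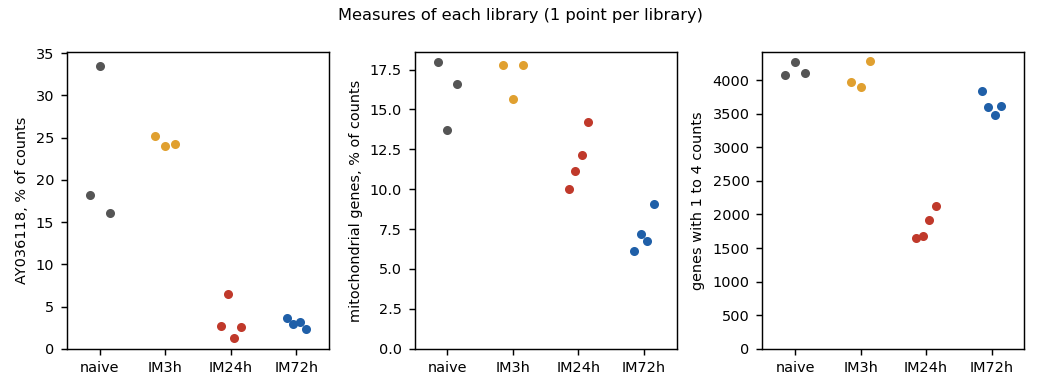
Measures of the 14 total RNA libraries, 1 point per library: percent of counts in AY036118, percent of counts in mitochondrially encoded genes and number of genes with 1 to 4 counts, by group. Naïve and IM3h libraries share the label of the Gfap-cre line and have AY036118 at 16.1% to 33.5%, whereas no IM24h or IM72h library, labelled with the Sox10 line, exceeds 6.501%, and IM24h has the fewest genes with 1 to 4 counts.

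Levels are given as CPM, which are counts per 1000000 counts in tested genes after scaling of libraries by their TMM factor, and 16328 genes with enough counts were tested. A gene was called when its Benjamini-Hochberg adjusted p was under 0.05 in the quasi-likelihood test of edgeR, and ± after a log2 fold change is its standard error. By this rule 2553 genes rose (15.6% of genes tested) and 2187 fell (13.4%), so that 29.0% were called, and 1646 rises and 1456 falls exceeded 2-fold (10.1% and 8.92%). The libraries of the groups did not overlap for 3297 genes that were higher (20.2%) and 3382 that were lower (20.7%). The median log2 fold change of all tested genes was 0.02, and it is the reference for the medians of gene lists given below. The shares of 15.6% higher and 13.4% lower are the reference for counts of calls in lists, apart from the neutrophil list. Division by library totals alone, without TMM factors, raised that median to 0.66 and gave 6281 rises and 720 falls, while totals without AY036118 and the mitochondrial genes gave a median of 0.19 with 3367 rises and 1624 falls. Without naïve library 1, 2 or 3 there were 1491, 1595 and 1522 rises and 1299, 1500 and 1371 falls. Counts of calls in lists are given again for each library without which they moved by over 1.5 times, apart from small counts. Of 24 counts of 1 or 2 calls 15 moved by that much without at least 1 library. Members with at most 3 counts in every naïve library entered the test through IM24h counts alone, which favours rises. They numbered 10 in the neutrophil list and 4 among innate receptors. In the CXC chemokine, chemokine receptor, cytokine, cytokine receptor, coagulation and mitosis lists they numbered 3 each. In the monocyte, TNF superfamily, alternative activation and matrix protease lists they numbered 2 each. Of 174 called genes that are named here, 24 lost the call in at least 1 fit that left out a single library, with adjusted p from 0.0501 to 0.328 there: Actg2, Adm, Adrb1, Cacna1c, Cdc6, Cdk1, Cxcl12, Dcn, Fos, Gbp3, Gdnf, Hpgd, Igha, Iglc1, Jund, Ly6c2, Myl4, Nqo1, P2rx2, Pdgfra, Pecam1, Sdhb, Stat3 and Upk3b. By library totals alone the calls of Actg2, Adm, Adrb1, Cacna1c, Dcn, Elavl4, Gbp3, Gdnf, Gjc1, Hpgd, Igha, Il4ra, Nqo1, P2rx2, Ppargc1a, Ryr2, Serpine2, Slc18a3 and Timp3 were lost and Jund turned in direction, and totals without AY036118 and the mitochondrial genes lost those of Adrb1, Dcn, Gdnf, Hpgd, Jund, Nqo1 and P2rx2. Pdgfra was also lost with the size factors of DESeq2, Pdgfra and Pecam1 with upper quartile scaling, and Jund, Pdgfra and Pecam1 without a filter on low counts.

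**Figure D2:**
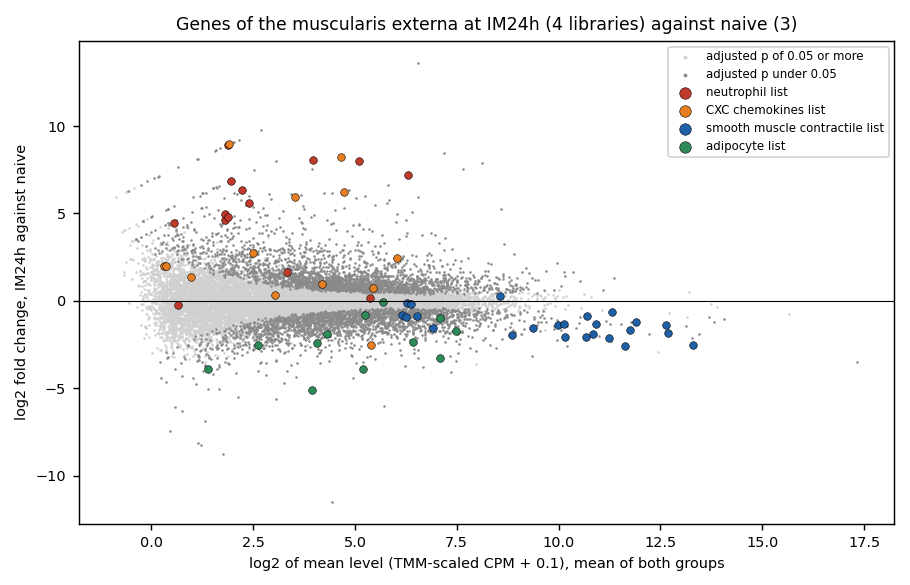
Log2 fold change at IM24h (4 libraries) against naïve (3 libraries) by the log2 of the mean level of each tested gene (TMM-scaled CPM + 0.1), with dark grey for an adjusted p under 0.05. Most members of the neutrophil and CXC chemokine lists lie above the zero line, and members of the adipocyte list and most members of the smooth muscle list, which are at high levels, lie below it.

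Genes of neutrophils, the phagocytes that enter inflamed tissue early, were higher at IM24h. Of the 24 genes listed as markers 20 are in the table and 14 had enough counts to be tested, of which 12 rose and 0 fell, with a median log2 fold change of 5.29 (3.40 with genes absent from naïve libraries set to their lower bound). Of these 14, 10 had at most 3 counts in every naïve library and entered the test through their IM24h counts alone, so that nothing is read from their share beside the 15.6% and 13.4% of all genes. Without a filter on low counts 13 of 20 rose. The sum of the list was 37.7, 36.4 and 70.2 CPM in naïve libraries and 223, 475, 567 and 216 CPM at IM24h. Because whole tissue was sequenced, fewer cells of a type and less RNA per cell cannot be told apart, and the same holds for rises. S100a8 and S100a9 encode the subunits of calprotectin, the main protein of neutrophil cytosol. S100a9 stood at 0.126, 0.222 and 0.384 CPM in the naïve libraries and 37.2, 79.8, 126 and 27.5 CPM at IM24h, and every IM24h library lay above every naïve library (at least 102-fold, adjusted p = 0.000152, where the bound sets naïve libraries to 3 counts). S100a8 stood at 0.126, 0.222 and 0 against 10.3, 36.8, 60.8 and 15.04 CPM (at least 46.1-fold, adjusted p = 0.000379), again without overlap.

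Cxcr2, the receptor through which neutrophils follow CXC chemokines, was at 0.126, 0 and 0.384 against 3.03, 16.9, 17.99 and 2.91 CPM (at least 15.3-fold, adjusted p = 0.00318), and libraries 2 and 3 of IM24h were the highest for it, as they were for S100a8 and S100a9. Lcn2, an iron-binding protein of neutrophil granules that other cells also make, stood at 1.01, 1.33 and 0.895 against 87.6, 217, 226 and 91.4 CPM (log2 fold change 7.20 ± 0.53, adjusted p = 4.30e-05). Fpr1, a receptor for formylated peptides, stood at 0.126, 0 and 0.128 against 0.977, 7.11, 16.7 and 11.4 CPM (at least 13.6-fold, adjusted p = 0.00271). The receptor genes Csf3r and Trem1 rose at least 9.75-fold and 11.2-fold (adjusted p = 0.00741 and 0.000705). Genes that neutrophils make in the marrow gave little: Ngp had 10 counts in 1 IM24h library and 0 in the other libraries, Ltf had at most 4 counts, and Camp, a cathelicidin, did not pass the test at 2.02, 0.889 and 1.79 against 0.391, 0.941, 2.73 and 1.33 CPM (log2 fold change -0.23 ± 0.78, adjusted p = 0.852).

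Genes of monocytes and of macrophages that derive from them were also higher, and 22 of 24 tested members rose and 0 fell, at a median log2 fold change of 3.06. Their sum was 786, 675 and 854 CPM in naïve libraries and 3242, 2457, 3427 and 4156 CPM at IM24h, with library 4 the highest. Ccr2, the receptor that lets monocytes leave marrow and blood, stood at 9.86, 11.6 and 11.5 CPM in the naïve libraries and 144, 143, 141 and 142 CPM at IM24h (log2 fold change 3.70 ± 0.16, adjusted p = 5.47e-06). Libraries of the same group were close to each other for this gene, and no library lay between the groups. Itgam, the alpha chain of complement receptor 3 on myeloid cells, was at 5.06, 8.44 and 4.86 against 98.6, 178, 169 and 135 CPM (log2 fold change 4.600 ± 0.30, adjusted p = 2.69e-05). Spp1, the secreted phosphoprotein osteopontin of wound macrophages, stood at 2.53, 0.222 and 0.256 against 133, 89.7, 124 and 95.1 CPM (log2 fold change 6.62 ± 0.54, adjusted p = 6.09e-05). For both genes the lowest IM24h library was many times the highest naïve library.

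Clec4e, a receptor for glycolipids of dying cells and microbes, had 0 counts in every naïve library and 1.86, 16.3, 19.6 and 13.2 CPM at IM24h, with library 1 the lowest (at least 19.1-fold, adjusted p = 0.00208). Ms4a6c, a membrane protein of monocytes, was at 4.68, 8.89 and 4.73 against 53.95, 42.4, 66.9 and 81.7 CPM (log2 fold change 3.37 ± 0.32, adjusted p = 0.000115). The classical monocyte gene Ly6c2 was low in both groups at 0.253, 0 and 0.512 against 1.37, 1.67, 4.43 and 2.55 CPM but passed the test (log2 fold change 3.10 ± 0.94, adjusted p = 0.0310). Lyz2, the lysozyme of myeloid cells, did not pass at 80.7, 44.4 and 75.2 against 48.8, 72.3, 162 and 523 CPM (log2 fold change 1.59 ± 0.70, adjusted p = 0.116), and only its library 4 at IM24h stood far above the naïve range.

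Markers of resident macrophages did not move as a block. Among them 7 of 15 tested members rose and 0 fell, at a median log2 fold change of 0.45, and the sum was 479.7, 438 and 435 CPM in naïve and 844, 818, 886 and 1089 CPM at IM24h libraries. C1qa, a chain of the first complement component that tissue macrophages secrete, stood at 40.3, 44.7 and 43.9 CPM in the naïve libraries and 185, 189.7, 168 and 175 CPM at IM24h (log2 fold change 2.06 ± 0.15, adjusted p = 3.28e-05), with a spread within each group far smaller than the gap between them. Adgre1, which encodes the F4/80 antigen of macrophages, was at 12.8, 11.1 and 10.9 against 25.6, 60.5, 64.9 and 55.4 CPM (log2 fold change 2.15 ± 0.31, adjusted p = 0.000829). Mrc1, the mannose receptor, was at 27.8, 26.9 and 27.5 against 101, 53.6, 74.1 and 77.2 CPM (log2 fold change 1.48 ± 0.21, adjusted p = 0.000821). In contrast, Csf1r, the receptor for the growth factor that maintains macrophages, stood at 48.6, 48.4 and 46.05 against 39.3, 30.3, 55.4 and 76.99 CPM (log2 fold change 0.08 ± 0.28, adjusted p = 0.852) with overlapping groups. In resident macrophage genes the median less that of all genes was 0.43, against 0.28 without IM24h library 4.

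Cx3cr1, the fractalkine receptor, was at 19.6, 26.2 and 20.7 against 21.1, 22.9, 23.8 and 40.98 CPM (log2 fold change 0.30 ± 0.26, adjusted p = 0.420). Cd163, the haemoglobin scavenger receptor, was at 11.6, 5.55 and 8.06 against 7.33, 6.69, 4.71 and 6.79 CPM (log2 fold change -0.41 ± 0.35, adjusted p = 0.406). Groups overlapped for both genes, and the test was not passed. Folr2, a folate receptor of long-lived macrophages, was below the naïve range in all 4 IM24h libraries at 4.17, 2.89 and 4.09 against 2.74, 0, 0.659 and 1.58 CPM but did not pass (log2 fold change -1.58 ± 0.94, adjusted p = 0.237).

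Most lymphocyte genes were close to the detection limit. Of 18 genes of T, NK and B cells 17 are in the table but only 6 had enough counts, 0 of these rose and Igha, the constant chain of immunoglobulin A of plasma cells, fell, at 289, 122 and 69.7 against 26.7, 16.2, 38.5 and 82.7 CPM (log2 fold change -1.97 ± 0.55, adjusted p = 0.0232, but -1.33 with adjusted p = 0.0636 by library totals alone). The T cell receptor gene Trac stood at 1.26, 1.56 and 2.05 against 0.195, 0.732, 3.202 and 1.82 CPM. Among dendritic cell and MHC class II genes 5 of 11 tested members rose and 0 fell, at a median log2 fold change of 0.99. For this list, library totals alone gave 9 higher and 0 lower, and the count of higher genes was 3 without naïve library 2. Ccr7, which guides dendritic cells to lymph nodes, had 0 counts in naïve libraries and 2.44, 1.88, 2.64 and 0.606 CPM at IM24h (at least 2.84-fold, adjusted p = 0.00922). Itgax, the integrin chain CD11c, stood at 1.01, 0.889 and 0.767 against 18.4, 9.41, 25.1 and 9.70001 CPM (log2 fold change 4.12 ± 0.49, adjusted p = 0.000336), whereas Cd74, the invariant chain of MHC class II, did not pass the test at 113, 106 and 110.3 against 144, 109.8, 166 and 139 CPM (log2 fold change 0.35 ± 0.17, adjusted p = 0.144).

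Chemokines that attract neutrophils and monocytes gave some of the steepest changes. In the CXC list 8 of 13 tested members rose and 1 fell, at a median log2 fold change of 1.99, and in the CC list 9 of 14 rose and 0 fell, with a median of 3.77 (3.35 with bounds). Among the tested members 3 CXC and 1 CC chemokine had at most 3 counts in every naïve library and entered the test through IM24h counts alone. Cxcl1, Cxcl2, Cxcl3 and Cxcl5 all bind Cxcr2. Cxcl1 stood at 0.253, 0.667 and 0.256 CPM in the naïve libraries and 14.6, 31.5, 35.8 and 8.37 CPM at IM24h (at least 33.8-fold, adjusted p = 0.000315). Cxcl3 had 0 counts in naïve libraries and 3.42, 8.36, 14.1 and 3.395 CPM at IM24h (at least 10.99-fold, adjusted p = 0.00167). Cxcl2 stood at 0, 0 and 1.79 against 13.3, 51.02, 119 and 24.7 CPM (log2 fold change 6.24 ± 1.07, adjusted p = 0.00210). Library 3 was the highest of the IM24h libraries for these 3 genes and no IM24h library reached down to a naïve one. Cxcl5 differed in that library 4 alone was low, at 0, 0.444 and 0.128 against 63.4, 59.6, 55.4 and 21.3 CPM (at least 74.9-fold, adjusted p = 6.24e-05).

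The promoters of Cxcl1, Cxcl2, Cxcl3 and of Il6, a cytokine that rose with them, are shown because they hold a motif that few promoters hold. They were chosen for this motif, and the promoter of Cxcl5 is not shown. Each run covers 120 bases before to 30 after the RefSeq start (GRCm38.p6, plus strand, 5′ to 3′) at chr5:90891125-90891274, chr5:90903779-90903928, chr5:90785981-90786130 and chr5:30012994-30013143, and capitals mark matches to the NF-kappaB motif, which was searched by its consensus on both strands, so that overlapping matches form 1 stretch.
Cxcl1: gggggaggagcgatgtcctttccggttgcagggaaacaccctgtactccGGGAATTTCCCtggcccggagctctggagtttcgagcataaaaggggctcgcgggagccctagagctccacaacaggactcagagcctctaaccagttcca
Cxcl2: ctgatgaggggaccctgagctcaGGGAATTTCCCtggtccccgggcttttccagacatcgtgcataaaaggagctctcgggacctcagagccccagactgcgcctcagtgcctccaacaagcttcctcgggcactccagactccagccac
Cxcl3: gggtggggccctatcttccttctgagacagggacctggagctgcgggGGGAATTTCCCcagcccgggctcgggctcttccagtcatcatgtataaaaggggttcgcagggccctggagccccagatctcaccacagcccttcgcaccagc
Il6: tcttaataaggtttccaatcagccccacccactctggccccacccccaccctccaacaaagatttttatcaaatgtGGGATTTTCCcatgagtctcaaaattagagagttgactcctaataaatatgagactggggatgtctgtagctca
The capitals begin 71 bases before the start in Cxcl1, 97 in Cxcl2, 73 in Cxcl3 and 44 in Il6. In windows of 300 bases, from 250 before to 50 after the start, the motif was found in 4 of 11 CXC chemokine promoters (36.4%; Cxcl1, Cxcl2, Cxcl3 and Cxcl10), 2 of 12 CC chemokine promoters (16.7%) and 3 of 12 cytokine promoters (25.0%), and in 974 of all 22862 promoters with a single window (4.26%). A match describes letters and shows no binding.

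Among other CXC chemokines, Cxcl10, an attractant of T cells that interferons induce, rose, at 1.39, 1.56 and 1.41 against 7.33, 12.5, 8.01 and 10.5 CPM (log2 fold change 2.72 ± 0.39, adjusted p = 0.000820). Cxcl12, which retains leukocytes in tissue, stood at 32.4, 29.1 and 36.3 against 55.03, 45.9, 52.2 and 61.8 CPM (log2 fold change 0.72 ± 0.17, adjusted p = 0.00976), above the naïve range in all libraries. Cxcl14 was the only CXC member that fell, at 63.4, 82.9 and 66.9 against 10.8, 13.6, 8.85 and 16.9 CPM (log2 fold change -2.51 ± 0.23, adjusted p = 0.000103), and no IM24h library reached the naïve range.

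Of CC chemokines, Ccl2, the main ligand of Ccr2, stood at 0.759, 0.667 and 4.48 CPM in the naïve libraries and 291, 559.9, 543 and 194 CPM at IM24h (log2 fold change 7.55 ± 0.68, adjusted p = 9.85e-05). Ccl7, a further ligand of Ccr2, was at 0.632, 0.889 and 4.35 against 71.7, 192, 136 and 49.6 CPM (log2 fold change 5.75 ± 0.70, adjusted p = 0.000347). In both genes naïve library 3 was the highest of its group, yet far below IM24h. Ccl9, a ligand of Ccr1, showed a narrower spread at 3.67, 3.56 and 4.86 against 106, 117, 171 and 115 CPM (log2 fold change 4.97 ± 0.26, adjusted p = 1.25e-05). Ccl17, a ligand of Ccr4, was near 0 in naïve libraries at 0, 0 and 0.128 CPM and at 4.11, 7.21, 10.5 and 1.46 CPM at IM24h (at least 8.71-fold, adjusted p = 0.00204). Ccl5, Ccl8 and Ccl11, which attract T cells, monocytes and eosinophils, did not pass the test, and Ccl8 stood at 5.31, 5.78 and 10.9998 against 4.89, 0.627, 2.45 and 32.1 CPM, with IM24h library 4 alone above the naïve range.

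Of chemokine receptors 7 of 12 rose and 0 fell, with a median of 2.37 (1.63 with bounds). Of these 12, 3 had at most 3 counts in every naïve library and entered the test through IM24h counts alone. Besides Ccr2, Cxcr2 and Ccr7, the receptor Ccr1 of monocytes and macrophages rose (log2 fold change 4.53 ± 0.52, adjusted p = 0.000284). Cxcr4, the receptor of Cxcl12, did not pass the test at 0.506, 0.667 and 1.53 against 1.27, 6.9003, 4.14 and 1.21 CPM (log2 fold change 1.87 ± 0.83, adjusted p = 0.118). In chemokine receptors the median less that of all genes was 2.35, against 1.31 without IM24h library 2.

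Cytokine genes rose in 11 of 14 tested members and 0 fell, with a median log2 fold change of 2.51. Of these 14, 3 had at most 3 counts in every naïve library and entered the test through IM24h counts alone. Il1b, the interleukin 1 of activated myeloid cells, stood at 0.506, 0.667 and 0.384 CPM in the naïve libraries and 9.29, 36.1, 81.1 and 20.9 CPM at IM24h (log2 fold change 6.17 ± 0.87, adjusted p = 0.000723). Il1rn, the antagonist that blocks the same receptor, was at 0.632, 0 and 0.895 against 22.97, 67.6, 56.1 and 23.04 CPM (log2 fold change 6.16 ± 0.66, adjusted p = 0.000219). Agonist and antagonist were thus both above the naïve range in every IM24h library. Il6 was at 0, 0 and 0.256 against 3.32, 6.27, 11.5 and 5.46 CPM (at least 9.95-fold, adjusted p = 0.00132), with library 3 the highest. Tnf stood at 0.126, 0.222 and 0 against 1.17, 7.95, 8.57 and 1.33 CPM (at least 7.13-fold, adjusted p = 0.00812), with libraries 2 and 3 well above 1 and 4. Osm, oncostatin M of the interleukin 6 family, was at 0.253, 0 and 0 against 4.89, 5.33, 5.09 and 2.06 CPM (at least 6.51-fold, adjusted p = 0.00294).

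Il33, an alarmin stored in nuclei of stromal cells, stood at 2.53, 1.56 and 3.71 against 12.7, 8.47, 15.9 and 22.3 CPM (log2 fold change 2.47 ± 0.43, adjusted p = 0.00222). Csf1, the growth factor of macrophages, was at 18.5, 18.9 and 29.5 against 58.7, 61.4, 51.99 and 53.1 CPM (log2 fold change 1.33 ± 0.20, adjusted p = 0.00112). Il18 did not pass the test at 8.09, 3.78 and 4.73 against 2.64, 1.57, 3.67 and 4.61 CPM (log2 fold change -0.83 ± 0.50, adjusted p = 0.233), with overlapping groups. Too few counts for a test were found for Il10, Il1a, Il12b, Il23a, Il4 and Csf3, and Il10 had 4 counts in 1 IM24h library and 0 in the other 6 libraries.

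Among cytokine receptors 16 of 23 tested members rose and 1 fell, at a median log2 fold change of 1.71. Of these 23, 3 had at most 3 counts in every naïve library and entered the test through IM24h counts alone. Osmr, the receptor of oncostatin M, was at 5.94, 6.89 and 6.65 against 28.7, 31.9, 50.7 and 46.7 CPM (log2 fold change 2.61 ± 0.26, adjusted p = 0.000167). Il6st, the signal chain it shares with interleukin 6, was at 191, 222 and 203 against 308, 362, 272 and 219 CPM (log2 fold change 0.50 ± 0.19, adjusted p = 0.0690), which did not pass. Il1r1, the signalling receptor of interleukin 1, stood at 12.8, 16.7 and 13.9 against 66.3, 63.9, 83.9 and 40.98 CPM (log2 fold change 2.15 ± 0.25, adjusted p = 0.000308). Il1r2, the decoy receptor without a signal, was at 0.253, 0.222 and 0.128 against 6.84, 7.95, 7.91 and 3.52 CPM (at least 9.83-fold, adjusted p = 0.000459). Csf2rb, the common beta chain for GM-CSF, interleukin 3 and interleukin 5, rose (log2 fold change 4.10 ± 0.54, adjusted p = 0.000495). Il4ra, a chain of the interleukin 4 and interleukin 13 receptors, was the only member that fell, at 108, 81.99 and 107 against 34.1, 42.03, 61.6 and 53.6 CPM (log2 fold change -1.05 ± 0.21, adjusted p = 0.00495, but -0.42 with adjusted p = 0.193 by library totals alone).

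Of the TNF superfamily, Tnfrsf12a, the receptor of the cytokine TWEAK, stood at 3.79, 2.22 and 7.67 against 206, 149, 197 and 98.8 CPM (log2 fold change 5.10 ± 0.42, adjusted p = 6.42e-05), and 9 higher and 1 lower calls were made among 14 tested members. Subunits and inhibitors of NF-kappaB, the transcription factor that interleukin 1 and TNF receptors activate, rose in 14 of 19 members and 0 fell. The subunit Nfkb1 was at 21.8, 19.6 and 24.2 against 47.2, 82.6, 64.05 and 38.7 CPM (log2 fold change 1.41 ± 0.26, adjusted p = 0.00307). Of the inhibitors, Bcl3 was at 3.41, 2.44 and 6.78 against 26.2, 36.5, 53.8 and 50.3 CPM (log2 fold change 3.26 ± 0.38, adjusted p = 0.000311). Tnfaip3, the enzyme A20, was at 1.14, 0.889 and 1.28 against 5.67, 12.8, 7.82 and 5.94 CPM (log2 fold change 2.83 ± 0.48, adjusted p = 0.00196). The NF-kappaB motif was present in 6 of 11 promoters of this list (54.5%).

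Targets of STAT3, the factor downstream of interleukin 6, and acute phase proteins rose in 11 of 17 tested members, and Orm1 and Il4ra fell, the latter not by library totals alone. Saa3, a serum amyloid made outside the liver, stood at 2.403, 2.67 and 2.17 CPM in the naïve libraries and 368, 884, 670.3 and 307 CPM at IM24h (log2 fold change 7.86 ± 0.49, adjusted p = 2.57e-05). Timp1, an inhibitor of metalloproteases, was at 3.67, 3.11 and 2.05 against 189, 210.0, 235 and 95.1 CPM (log2 fold change 5.95 ± 0.39, adjusted p = 2.69e-05). Serpina3n, a protease inhibitor, was at 4.68, 4.44 and 6.52 against 42.9, 64.6, 170.3 and 213 CPM (log2 fold change 4.54 ± 0.59, adjusted p = 0.000497), and libraries 3 and 4 exceeded 1 and 2 for it. Socs3, the feedback inhibitor of STAT3, stood at 11.003, 6.67 and 18.2 against 40.4, 52.7, 108 and 126 CPM (log2 fold change 2.74 ± 0.46, adjusted p = 0.00187), and Stat3 itself at 198, 228 and 256 against 372, 382, 350.5 and 289.8 CPM (log2 fold change 0.62 ± 0.17, adjusted p = 0.0187).

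Innate receptors and inflammasome parts rose in 18 of 22 tested members, and 0 fell. Of these 22, 4 had at most 3 counts in every naïve library and entered the test through IM24h counts alone. Cd14, the co-receptor for lipopolysaccharide, was at 3.29, 1.9998 and 3.97 against 16.8, 20.4, 39.9 and 49.2 CPM (log2 fold change 3.31 ± 0.45, adjusted p = 0.000588), and its partner Tlr4 at 1.52, 0.889 and 2.302 against 7.82, 12.9, 14.9 and 5.94 CPM (log2 fold change 2.68 ± 0.49, adjusted p = 0.00284). Nlrp3, the sensor of the inflammasome, stood at 0.885, 0.222 and 0.128 against 2.15, 9.93, 16.8 and 3.88 CPM (log2 fold change 4.20 ± 0.92, adjusted p = 0.00713). Casp1, the protease that inflammasomes activate, did not pass the test at 5.82, 3.78 and 4.35 against 1.37, 4.08, 6.22 and 5.21 CPM (log2 fold change -0.15 ± 0.52, adjusted p = 0.860).

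The list of alternative macrophage activation, a state linked to interleukin 4, interleukin 13 and repair, split in direction, with 8 higher and 2 lower among 13 tested. Chil3, a chitinase-like protein, stood at 0.126, 0 and 0 CPM in the naïve libraries and 10.1, 5.65, 20.2 and 29.7 CPM at IM24h (at least 24.6-fold, adjusted p = 0.000368). Ear2, a ribonuclease, was at 0.379, 0.222 and 0.895 against 3.62, 4.496, 11.3 and 12.7 CPM (log2 fold change 3.89 ± 0.70, adjusted p = 0.00272). Retnla, a further marker of this state, fell instead, at 11.8, 13.998 and 16.8 against 5.47, 3.14, 2.17 and 0.970 CPM (log2 fold change -2.26 ± 0.48, adjusted p = 0.00648), and no IM24h library reached its naïve range.

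Enzymes that make prostanoids, leukotrienes and nitric oxide mostly did not pass the test, with 6 higher and 2 lower among 23. For these enzymes, library totals alone gave 11 higher and 0 lower. A fit of all 4 groups gave 5 lower. Ptgs2, the inducible cyclooxygenase, stood at 15.9, 12.7 and 13.6 CPM in the naïve libraries and 128, 70.7, 133 and 42.7 CPM at IM24h (log2 fold change 2.73 ± 0.38, adjusted p = 0.000722). Alox5ap, which presents arachidonate to 5-lipoxygenase, was at 7.46, 8.89 and 8.697 against 39.5, 57.6, 75.2 and 71.1 CPM (log2 fold change 2.87 ± 0.26, adjusted p = 9.73e-05). Hpgd, which breaks down prostaglandins, fell (log2 fold change -1.30 ± 0.41, adjusted p = 0.0364, but -0.67 with adjusted p = 0.199 by library totals alone) from 31.6, 29.8 and 29.5 to 8.797, 11.6, 5.18 and 23.8 CPM. Nos2, the inducible nitric oxide synthase, was low throughout at 2.78, 2.89 and 1.02 against 0.977, 1.57, 5.37 and 0.970 CPM (log2 fold change 0.01 ± 0.77, adjusted p = 0.993), and Nos1, the synthase of inhibitory motor neurons, overlapped at 74.9, 65.1 and 65.2 against 53.8, 49.2, 55.5 and 82.1 CPM (log2 fold change -0.19 ± 0.19, adjusted p = 0.502).

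Complement genes showed 11 higher and 2 lower among 20 tested. For complement genes, the count of lower genes was 5 without IM24h library 4. C3, the central component, did not pass the test at 253, 279 and 307 against 131, 116, 125 and 317 CPM (log2 fold change -0.70 ± 0.33, adjusted p = 0.137), and only library 4 reached above the naïve range. Cfd, complement factor D and a product of adipocytes, fell at 199, 255 and 279 against 28.5, 13.4, 22.8 and 35.8 CPM (log2 fold change -3.28 ± 0.29, adjusted p = 9.07e-05). Of type I interferon targets 8 of 23 rose and 0 fell. For type I interferon targets, the count of higher genes was 5 without naïve library 3. Bst2, tetherin, was at 5.94, 9.11 and 7.03 against 47.4, 46.6, 46.8 and 39.4 CPM (log2 fold change 2.63 ± 0.21, adjusted p = 6.09e-05), whereas Ifit1 overlapped at 13.03, 12.4 and 12.2 against 5.28, 12.5, 8.95 and 10.1 CPM (log2 fold change -0.45 ± 0.31, adjusted p = 0.306). Interferon gamma targets and class I presentation gave 8 higher and 2 lower among 23, with Irf1 higher (log2 fold change 1.28 ± 0.20, adjusted p = 0.00141) and Gbp3, a guanylate-binding protein, lower (log2 fold change -0.86 ± 0.20, adjusted p = 0.00984, but -0.21 with adjusted p = 0.457 by library totals alone). For interferon gamma targets and class I presentation, library totals alone gave 15 higher and 0 lower, and the count of higher genes was 4 without naïve library 2 and 5 without naïve library 1 or 3 or IM24h library 1.

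**Figure D3:**
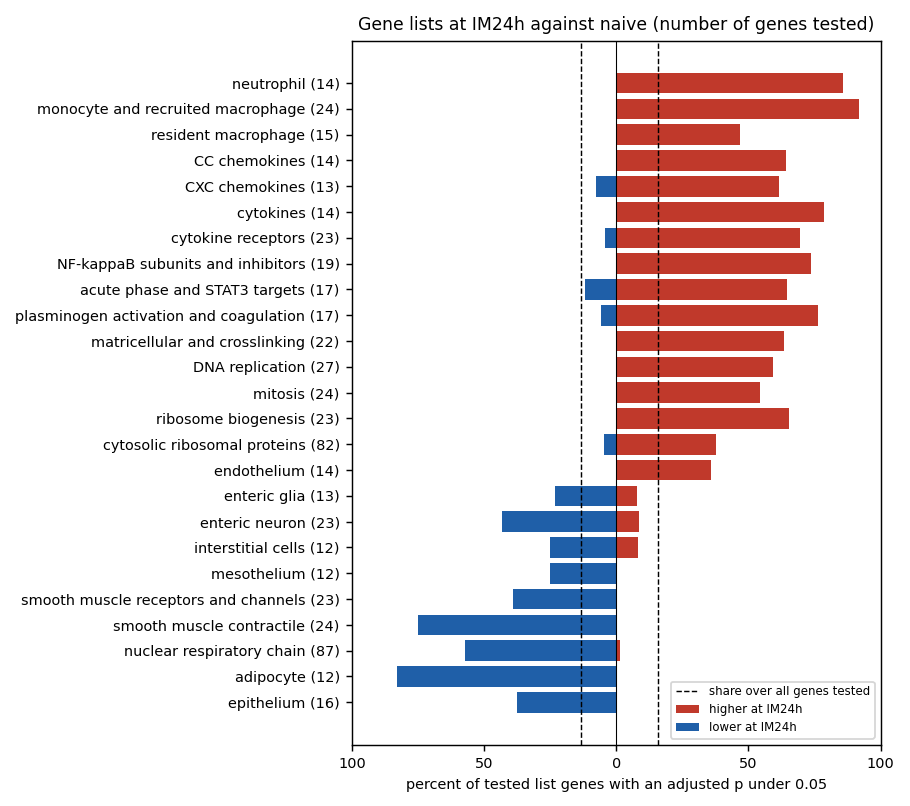
Percent of tested members of 25 gene lists with an adjusted p under 0.05, to the right for higher and to the left for lower at IM24h, with the number tested in brackets and dashed lines at the shares of all genes (15.6% higher and 13.4% lower), which do not bear on the neutrophil list, where 10 of 14 genes entered the test through IM24h alone. In addition 2 of 24 monocyte, 3 of 14 cytokine, 3 of 13 CXC chemokine, 3 of 23 cytokine receptor, 3 of 17 coagulation and 3 of 24 mitosis genes entered that way. Lists of monocytes and replication extend to the right of the line, and smooth muscle, adipocyte and respiratory chain lists to the left.

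Genes of the contractile apparatus of smooth muscle fell. Among 24 members, all tested, 18 fell and 0 rose, at a median log2 fold change of -1.36, and by library totals alone 11 fell, 1 rose and the median was -0.72. The sum was 76622, 75262 and 81821 CPM in naïve libraries and 29860.4, 14210.4, 19178 and 31824 CPM at IM24h, so that libraries 2 and 3 were the lowest and no library overlapped. Tpm2, beta-tropomyosin of the thin filament (chr4:43514711-43523765), stood at 5113, 5680.0 and 5482 CPM in the naïve libraries and 1207, 669.5, 749 and 926 CPM at IM24h (log2 fold change -2.61 ± 0.23, adjusted p = 8.83e-05). Mylk, the kinase that starts contraction by acting on myosin light chain, was at 18484, 13656 and 19606 against 3403, 1761, 2351 and 4470.4 CPM (log2 fold change -2.53 ± 0.32, adjusted p = 0.000414). Myl9, the light chain it acts on, stood at 3844, 3814 and 4080.3 against 983, 324, 741 and 1594 CPM (log2 fold change -2.10 ± 0.41, adjusted p = 0.00406). All 3 were below the naïve range in every IM24h library.

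Acta2, smooth muscle alpha-actin, was at 10310.2, 9739.8 and 11107 against 3775, 1449.6, 2121 and 4175 CPM (log2 fold change -1.85 ± 0.34, adjusted p = 0.00278). Actg2, the gamma-actin of visceral muscle, was at 2762, 2855 and 3025 against 909, 143, 497 and 1505 CPM (log2 fold change -1.92 ± 0.57, adjusted p = 0.0282, but -1.28 with adjusted p = 0.0798 by library totals alone) and varied most, with library 2 far below the others. Myh11, the smooth muscle myosin heavy chain, stood at 4853, 6214 and 4758 against 1838, 815, 1379 and 2499 CPM (log2 fold change -1.69 ± 0.33, adjusted p = 0.00379). Des, the intermediate filament desmin, was at 1774, 1814 and 1887 against 499, 228, 441 and 589 CPM (log2 fold change -2.05 ± 0.28, adjusted p = 0.000574). In each of these the highest IM24h library was under the lowest naïve library.

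Members that did not pass the test included Cnn1, calponin, at 2185, 1930.0 and 2297 against 1453, 338, 958 and 1871 CPM (log2 fold change -0.89 ± 0.43, adjusted p = 0.151), Flna, Kcnmb1, Myocd and Prkg1. Myocd, the coactivator that drives contractile genes, stood at 69.4, 92.7 and 77.3 against 94.2, 92.2, 57.6 and 50.7 CPM (log2 fold change -0.11 ± 0.24, adjusted p = 0.758). Prkg1, the kinase through which nitric oxide relaxes muscle, was at 88.5, 97.3 and 78.5 against 104, 83.3, 57.4 and 61.5 CPM (log2 fold change -0.20 ± 0.22, adjusted p = 0.514). Both overlapped between groups. The CArG box, the motif of serum response factor, was found in 1 of 15 promoters of the list (Myl9) and in 350 of 22862 promoters overall (1.53%). Vim, vimentin, a filament of mesenchymal cells, rose from 389, 324 and 434 to 1204, 931, 1599 and 1319 CPM (log2 fold change 1.72 ± 0.22, adjusted p = 0.000429), and marks no single cell type.

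Receptors and channels of the muscle fell in 9 of 23 tested members and 0 rose, at a median log2 fold change of -0.81. By library totals alone 3 rose and 2 fell, and the median was -0.16 against 0.66 for all genes. Chrm2, a muscarinic receptor for acetylcholine, stood at 535, 439.7 and 539.9 CPM in the naïve libraries and 159, 135, 143 and 209.8 CPM at IM24h (log2 fold change -1.64 ± 0.19, adjusted p = 0.000267), without overlap, whereas Chrm3, the muscarinic receptor that couples to calcium release, overlapped at 13.5, 21.997 and 15.99 against 20.5, 9.51, 16.8 and 14.4 CPM (log2 fold change -0.16 ± 0.29, adjusted p = 0.722). Cacna1c, the L-type calcium channel, was at 69.1, 111 and 91.3 against 51.5, 47.99, 39.6 and 67.1 CPM (log2 fold change -0.81 ± 0.22, adjusted p = 0.0180, but -0.16 with adjusted p = 0.581 by library totals alone). Gjc1, a connexin, was at 99.7, 95.5 and 90.3 against 53.95, 53.8, 29.4 and 36.01 CPM (log2 fold change -1.14 ± 0.22, adjusted p = 0.00389, but -0.50 with adjusted p = 0.0998 by library totals alone).

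Of adrenoceptors, which answer noradrenaline of sympathetic fibres, Adrb3 stood at 53.1, 44.9 and 54.2 against 16.1, 3.55, 9.89 and 25.1 CPM (log2 fold change -1.90 ± 0.47, adjusted p = 0.0128). Adrb1 was at 28.1, 31.6 and 24.9 against 21.3, 10.7, 15.9 and 14.4 CPM (log2 fold change -0.85 ± 0.24, adjusted p = 0.0249, but -0.20 with adjusted p = 0.574 by library totals alone). Both fell. Ryr2, the calcium release channel, also fell (log2 fold change -1.08 ± 0.19, adjusted p = 0.00218, but -0.43 with adjusted p = 0.0854 by library totals alone).

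Enteric neuron genes moved in both directions. In the list 2 of 23 tested members rose and 10 fell, at a median log2 fold change of -0.67, and by library totals alone 5 rose, 4 fell and the median was -0.03. The neuropeptide genes Vip and Gal were the members that rose. Vip, the peptide of inhibitory motor neurons, stood at 41.99, 45.8 and 46.9 CPM in the naïve libraries and 244, 228, 279.5 and 154 CPM at IM24h (log2 fold change 2.33 ± 0.22, adjusted p = 0.000104). Gal, galanin, was at 237, 169 and 252 against 592, 619, 499 and 355 CPM (log2 fold change 1.23 ± 0.23, adjusted p = 0.00322). Tac1, the precursor of substance P, overlapped at 94.6, 74.9 and 94.3 against 132, 113, 103 and 63.05 CPM (log2 fold change 0.22 ± 0.23, adjusted p = 0.503).

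Genes of the neuronal cytoskeleton and of cholinergic transmission were among the members that fell. Stmn2, a regulator of microtubules, was at 150.0, 112 and 141 against 52.98, 44.7, 44.9 and 64.5 CPM (log2 fold change -1.38 ± 0.18, adjusted p = 0.000495). Nefl, the light neurofilament, was at 15.2, 12.9 and 18.5 against 6.26, 2.196, 4.05 and 4.24 CPM (log2 fold change -1.89 ± 0.36, adjusted p = 0.00355). Slc18a3, the vesicular transporter of acetylcholine, stood at 17.3, 16.4 and 17.8 against 5.86, 4.705, 8.19 and 8.002 CPM (log2 fold change -1.36 ± 0.27, adjusted p = 0.00444, but -0.72 with adjusted p = 0.0776 by library totals alone). Chat, which makes acetylcholine and whose gene holds Slc18a3, was at 9.23, 6.89 and 9.85 against 4.496, 5.23, 7.63 and 6.55 CPM (log2 fold change -0.54 ± 0.33, adjusted p = 0.241), which did not pass. Chrna3, a nicotinic receptor chain, was at 19.98, 12.7 and 19.2 against 6.45, 4.08, 3.297 and 7.52 CPM (log2 fold change -1.70 ± 0.34, adjusted p = 0.00467). Elavl4, an RNA-binding protein of all neurons (HuD), was at 135, 146 and 139 against 85.3, 62.8, 69.98 and 81.6 CPM (log2 fold change -0.90 ± 0.15, adjusted p = 0.00196, but -0.26 with adjusted p = 0.270 by library totals alone), and Uchl1 (PGP9.5) at 175, 156 and 163 against 112, 140.2, 94.3 and 62.2 CPM (log2 fold change -0.69 ± 0.24, adjusted p = 0.0510). Every IM24h library lay below the naïve range for these genes apart from Chat, yet Uchl1 did not pass the test.

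Glial genes gave 1 higher and 3 lower among 13 tested, with a median of -0.29, which was 0.33 by library totals alone. For glial genes, library totals alone gave 2 higher and 2 lower, and the count of lower genes was 5 without IM24h library 4. In glial genes the median less that of all genes was -0.31, against -0.09 without IM24h library 1 and -0.12 without IM24h library 3. S100b, a calcium-binding protein of glia, stood at 39.7, 35.996 and 43.4 CPM in the naïve libraries and 6.94, 11.1, 3.96 and 12.97 CPM at IM24h (log2 fold change -2.19 ± 0.34, adjusted p = 0.00125), without overlap. Ngfr, the low-affinity neurotrophin receptor, was at 56.03, 35.8 and 43.7 against 15.5, 10.8, 22.4 and 15.9 CPM (log2 fold change -1.49 ± 0.26, adjusted p = 0.00210). Gfap, a glial filament, did not pass at 11.9, 12.4 and 10.4 against 11.04, 14.3, 14.8 and 6.55 CPM (log2 fold change 0.02 ± 0.31, adjusted p = 0.970). Sox10, the transcription factor of glia, rose, at 19.6, 16.4 and 15.6 against 39.5, 28.4, 72.7 and 74.2 CPM (log2 fold change 1.64 ± 0.34, adjusted p = 0.00514). Since, by the labels, the Sox10 promoter drives the Cre of the IM24h mice, and Sox10 stood at 25.5 ± 2.46 CPM (SD, n = 3) at IM3h, labelled Gfap-cre, and 87.3 ± 44.7 CPM (SD, n = 4) at IM72h, labelled with the Sox10 line, line and surgery cannot be told apart for this gene. Rpl22, the tagged gene, overlapped at 275, 210.4 and 254 against 215, 225, 204 and 187 CPM (log2 fold change -0.25 ± 0.15, adjusted p = 0.253).

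Interstitial cells pace and relay signals to the muscle. Their list gave 1 higher and 3 lower among 12, with a median of -0.41 (0.24 by library totals alone). For interstitial genes, library totals alone gave 2 higher and 1 lower, and the count of lower genes was 6 without IM24h library 4. In interstitial genes the median less that of all genes was -0.43, against -0.73 without IM24h library 4. Kit, the receptor of pacemaker cells, was at 77.1, 86.9 and 82.6 against 75.7, 82.9, 45.3 and 53.6 CPM (log2 fold change -0.35 ± 0.21, adjusted p = 0.241). Ano1, their chloride channel, was at 151, 132 and 153 against 83.7, 45.2, 83.9 and 197 CPM (log2 fold change -0.51 ± 0.39, adjusted p = 0.351), and both overlapped. Hcn4, a cation channel, fell to 1.66, 4.18, 2.64 and 11.2 CPM from 25.5, 20.2 and 25.96 CPM (log2 fold change -2.30 ± 0.53, adjusted p = 0.00877). Pdgfra, the receptor of fibroblast-like interstitial cells and fibroblasts, rose by little, at 92.5, 86.9 and 84.7 against 126, 107, 113 and 122 CPM (log2 fold change 0.41 ± 0.14, adjusted p = 0.0479, but adjusted p from 0.0533 to 0.112 in 3 other settings).

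Mesothelium, the cell layer that covers the bowel and is touched by handling, gave 0 higher and 3 lower among 12 tested, a median of -1.44 and a sum of 297, 307 and 296 CPM in naïve and 52.9, 19.8, 64.7 and 236 CPM at IM24h libraries, of which library 4 was the highest. Upk3b, a uroplakin, stood at 41.9, 53.5 and 64.98 against 3.81, 1.78, 5.27 and 27.2 CPM (log2 fold change -2.51 ± 0.70, adjusted p = 0.0225). Msln, mesothelin, was at 18.1, 25.6 and 20.6 against 1.27, 2.82, 3.01 and 19.5 CPM (log2 fold change -1.70 ± 0.73, adjusted p = 0.108), with library 4 at the naïve level and the other 3 far below. For mesothelial genes, library totals alone gave 0 higher and 1 lower, and the count of lower genes was 0 without naïve library 2 or IM24h library 1 or 3, 1 without naïve library 1 or 3 or IM24h library 2 and 8 without IM24h library 4. In mesothelial genes the median less that of all genes was -1.46, against -1.10 without IM24h library 2 and -2.65 without IM24h library 4.

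Fibroblast genes gave 1 higher and 3 lower among 11, with a median of -0.55 (0.09 by library totals alone). For fibroblast genes, library totals alone gave 4 higher and 2 lower, and the count of lower genes was 6 without IM24h library 4. A fit of all 4 groups gave 5 lower. In fibroblast genes the median of -0.55 was -0.34 in a test without a filter on low counts and -0.31 in a fit of all 4 groups. In fibroblast genes the median less that of all genes was -0.57, against -0.38 without naïve library 2 and -0.34 without naïve library 3. Dcn, the proteoglycan decorin, was at 949, 951 and 1041 against 407, 324, 437 and 885 CPM (log2 fold change -0.93 ± 0.30, adjusted p = 0.0412, but -0.30 with adjusted p = 0.470 by library totals alone). Ogn, osteoglycin, was at 307, 283 and 346 against 60.1, 35.02, 43.3 and 136 CPM (log2 fold change -2.19 ± 0.40, adjusted p = 0.00278). Col1a1 did not pass the test at 464, 446 and 501 against 398, 274, 348 and 773 CPM (log2 fold change -0.07 ± 0.31, adjusted p = 0.887).

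Endothelial genes rose in 5 of 14 and 0 fell. For endothelial genes, library totals alone gave 8 higher and 0 lower, and the count of higher genes was 2 without naïve library 1 or 2 and 3 without naïve library 3 or IM24h library 3. Flt4, the receptor of lymphatic growth factors, was at 1.897, 1.33 and 1.92 against 4.79, 11.5, 4.898 and 12.97 CPM (log2 fold change 2.28 ± 0.51, adjusted p = 0.00800). Pecam1, a junction protein of all endothelium, was at 8.85, 12.4 and 11.5 against 15.2, 24.4, 20.4 and 15.9 CPM (log2 fold change 0.80 ± 0.25, adjusted p = 0.0382, but adjusted p from 0.0505 to 0.0617 in 2 other settings). Icam1 and Vcam1 are the adhesion molecules that leukocytes bind on inflamed vessels. Icam1 stood at 3.41, 2.67 and 4.86 against 18.8, 27.6, 24.4 and 17.3 CPM (log2 fold change 2.57 ± 0.30, adjusted p = 0.000317). Vcam1 was at 15.3, 14.9 and 15.5 against 42.4, 42.9, 39.5 and 33.95 CPM (log2 fold change 1.38 ± 0.17, adjusted p = 0.000400), without overlap in either. Selp, P-selectin, was above the naïve range at 0, 0.889 and 0.512 against 2.15, 1.88, 3.01 and 2.79 CPM but did not pass (log2 fold change 2.46 ± 0.95, adjusted p = 0.0759).

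Genes of tissues next to the muscle were read as a measure of what else the samples held. Epithelial genes gave 0 higher and 6 lower among 16 tested, with sums of 937, 821 and 307 CPM in naïve and 163, 175, 339 and 435 CPM at IM24h libraries, so that naïve library 3 lay within the IM24h range. For epithelial genes, library totals alone gave 1 higher and 3 lower, and the count of lower genes was 3 without naïve library 1 or 2 or IM24h library 2, 10 without naïve library 3 and 12 without IM24h library 4. Epcam was at 52.9, 45.3 and 14.6 against 8.31, 9.83, 12.1 and 13.6 CPM (log2 fold change -1.78 ± 0.38, adjusted p = 0.00642). Muc2, the mucin of goblet cells, was at 76.3, 79.3 and 24.3 against 6.84, 3.14, 10.9 and 19.8 CPM (log2 fold change -2.56 ± 0.55, adjusted p = 0.00644). Genes of the exocrine pancreas gave 0 calls among 10, with sums of 12.5, 72.7 and 2.17 CPM against 30.7, 0.314, 20.2 and 203 CPM.

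Adipocyte genes fell in 10 of 12 members and 0 rose, with sums of 1035, 1019 and 1291 CPM in naïve and 271, 304, 302 and 415 CPM at IM24h libraries and a median log2 fold change of -2.38. Adipoq, adiponectin, stood at 62.2, 59.1 and 84.7 against 3.13, 0.941, 3.39 and 11.4 CPM (log2 fold change -3.89 ± 0.57, adjusted p = 0.000895). Retn, resistin, was at 26.8, 27.3 and 34.8 against 1.95, 1.25, 0 and 0.121 CPM (log2 fold change -5.11 ± 0.72, adjusted p = 0.000716). Plin1, the coat protein of fat droplets, was at 22.3, 24.9 and 36.1 against 3.71, 5.33, 3.48 and 8.49 CPM (log2 fold change -2.41 ± 0.34, adjusted p = 0.000721). Fasn, fatty acid synthase, which is not confined to adipocytes, was at 316, 215 and 401 against 13.5, 10.7, 19.6 and 30.9 CPM (log2 fold change -4.06 ± 0.36, adjusted p = 8.95e-05). Thrsp, a nuclear regulator of fat synthesis, was at 94.1, 61.1 and 153 against 1.76, 3.14, 0.848 and 0.606 CPM (log2 fold change -6.00 ± 0.48, adjusted p = 6.09e-05). Cd36, a fatty acid carrier that macrophages also express, overlapped at 47.9, 59.99 and 50.7 against 38.2, 44.1, 48.4 and 67.2 CPM (log2 fold change -0.09 ± 0.21, adjusted p = 0.764). The part of fat, epithelium or mesothelium in the tissue taken was not tested for the results above.

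**Figure D4:**
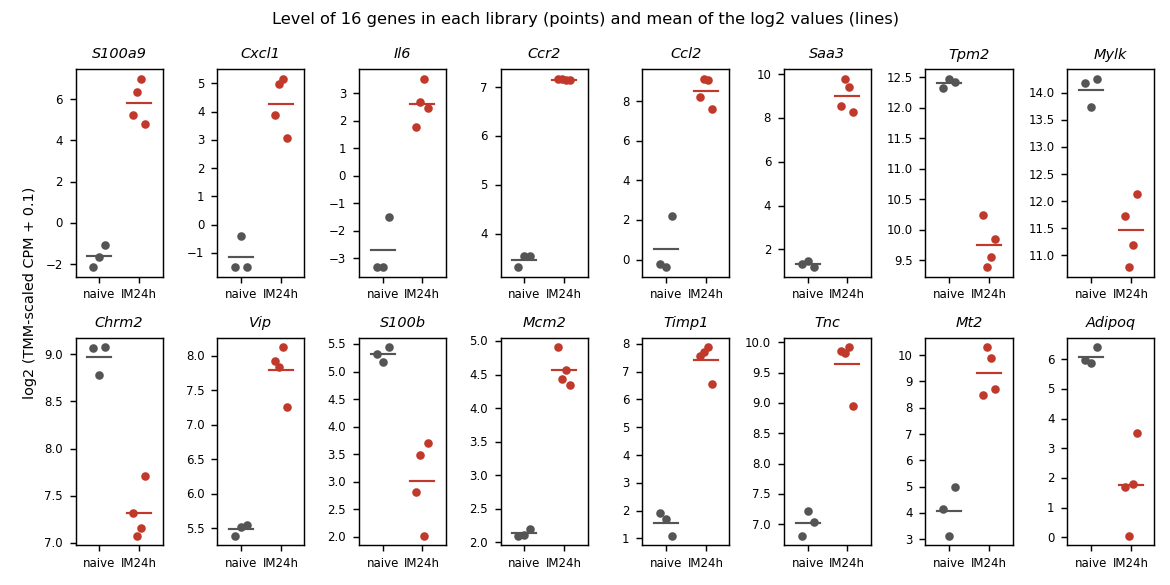
Level of 16 genes in each of 3 naïve (grey) and 4 IM24h (red) libraries as log2 of TMM-scaled CPM + 0.1, with a line at the mean of the log2 values and an axis of its own for each gene. Points of the groups do not overlap in any of the 16 panels, with S100a9, Cxcl1, Il6, Ccr2, Ccl2, Saa3, Vip, Mcm2, Timp1, Tnc and Mt2 higher and Tpm2, Mylk, Chrm2, S100b and Adipoq lower at IM24h. The 16 genes were picked for display, and over all genes tested 20.2% were higher and 20.7% lower without overlap.

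Genes of DNA replication rose in 16 of 27 members and 0 fell, with a median log2 fold change of 1.57. Mcm2 to Mcm7 form the helicase that opens DNA. Mcm2 stood at 4.17, 4.22 and 4.48 CPM in the naïve libraries and 29.9, 21.4, 23.6 and 20.1 CPM at IM24h (log2 fold change 2.47 ± 0.25, adjusted p = 0.000159). Mcm3 was at 5.19, 3.56 and 2.69 against 38.02, 29.7, 31.6 and 15.3 CPM (log2 fold change 2.901 ± 0.37, adjusted p = 0.000446). Mcm6 was at 6.96, 5.11 and 6.01 against 21.4, 8.57, 17.1 and 22.4 CPM (log2 fold change 1.52 ± 0.35, adjusted p = 0.00979). Every IM24h library was above the naïve range for the 3 genes. Pcna, the clamp of DNA polymerase, was at 18.7, 13.1 and 21.5 against 83.7, 49.03, 58.96 and 55.05 CPM (log2 fold change 1.78 ± 0.24, adjusted p = 0.000616). Cdt1, which loads the helicase, was at 2.02, 2.44 and 2.56 against 21.99, 17.5, 20.7 and 16.98 CPM (log2 fold change 3.04 ± 0.27, adjusted p = 9.84e-05).

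Genes of mitosis rose in 13 of 24 and 0 fell, with a median of 1.62. For mitosis genes, the count of higher genes was 4 without naïve library 2 or 3, 7 without naïve library 1 or IM24h library 3 or 4 and 8 without IM24h library 1. Top2a, topoisomerase II of dividing cells, stood at 8.47, 5.11 and 5.12 against 38.6, 24.3, 34.2 and 52.99 CPM (log2 fold change 2.57 ± 0.32, adjusted p = 0.000385). Cdk1, the kinase that starts mitosis, was at 3.67, 1.78 and 1.28 against 4.01, 6.69, 8.01 and 12.97 CPM (log2 fold change 1.80 ± 0.54, adjusted p = 0.0301). Ccnb2, a cyclin that activates it, was at 0.379, 0.667 and 0.128 against 4.59, 2.09, 5.75 and 7.64 CPM (at least 7.53-fold, adjusted p = 0.00488). Mki67, the antigen Ki-67, did not pass the test at 4.43, 2.44 and 4.48 against 8.21, 5.33, 11.3 and 8.37 CPM (log2 fold change 1.11 ± 0.40, adjusted p = 0.0577), although its groups did not overlap.

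A replication and a mitosis promoter are shown with the motifs known for these phases, again as 120 bases before to 30 after the start (GRCm38.p6, minus strand, 5′ to 3′), at chr1:128359676-128359825 and chr10:69352883-69353032. Capitals mark E2F motifs (TTTCCCGC, TTTGGCGC, TTTCGCGC or TTTGCCGC) in Mcm6 and the CHR motif (TTTGAA) in Cdk1, on either strand.
Mcm6: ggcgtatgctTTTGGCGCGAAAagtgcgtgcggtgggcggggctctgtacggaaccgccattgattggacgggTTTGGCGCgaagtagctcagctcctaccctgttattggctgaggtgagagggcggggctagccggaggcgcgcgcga
Cdk1: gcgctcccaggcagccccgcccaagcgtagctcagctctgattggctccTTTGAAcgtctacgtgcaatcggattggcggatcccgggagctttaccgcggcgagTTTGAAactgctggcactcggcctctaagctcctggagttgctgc
E2F motifs were in 6 of 19 promoters of the replication list (31.6%; Mcm3, Mcm5, Mcm6, Cdc6, Cdt1 and Pola1) and in 530 of 22862 overall (2.32%). CHR motifs were in 14 of 20 mitosis promoters (70.0%) and in 4239 overall (18.5%).

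Collagens mostly did not pass the test, with 4 higher (17.4%) and 2 lower (8.70%) among 23, against 15.6% and 13.4% of all genes. For collagens, library totals alone gave 14 higher and 1 lower, and the count of higher genes was 1 without naïve library 1, 2 or 3 and 2 without IM24h library 1, and the count of lower genes was 6 without IM24h library 4. A test without a filter on low counts gave 2 higher and a fit of all 4 groups gave 8 higher. Totals without AY036118 and the mitochondrial genes gave 9 collagens higher and 1 lower. Col3a1 stood at 433, 470.4 and 439.7 against 499, 343, 466 and 1091 CPM (log2 fold change 0.42 ± 0.34, adjusted p = 0.379), and Col8a2, a short-chain collagen, fell at 64.6, 78.4 and 57.05 against 3.81, 3.14, 7.06 and 9.94 CPM (log2 fold change -3.48 ± 0.35, adjusted p = 0.000167). Matricellular and crosslinking proteins rose in 14 of 22 and 0 fell. Tnc, tenascin C of wounds, stood at 112, 149.5 and 131 against 930.1, 904, 967 and 495 CPM (log2 fold change 2.66 ± 0.26, adjusted p = 0.000146), with library 4 the lowest of IM24h. Fn1, fibronectin, was at 539, 487 and 618 against 1983, 1228, 1384 and 2180.4 CPM (log2 fold change 1.63 ± 0.24, adjusted p = 0.000901). Lox, which crosslinks collagen, was at 5.82, 4.89 and 6.27 against 24.4, 16.7, 37.1 and 24.6 CPM (log2 fold change 2.17 ± 0.30, adjusted p = 0.000676). Ccn1, a matrix protein induced by stretch, was at 3.41, 4.44 and 2.05 against 80.5, 50.9, 90.98 and 36.3 CPM (log2 fold change 4.33 ± 0.41, adjusted p = 0.000112). Postn, periostin, overlapped at 145, 126 and 135 against 87.7, 24.5, 84.7 and 234 CPM (log2 fold change -0.33 ± 0.53, adjusted p = 0.679).

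Of matrix proteases and their inhibitors 11 higher and 2 lower calls were made among 23. Mmp3, stromelysin, stood at 1.77, 0.444 and 1.02 against 64.3, 140.2, 67.3 and 25.7 CPM (log2 fold change 5.98 ± 0.66, adjusted p = 0.000242). Mmp12, the elastase of macrophages, was at 0, 0 and 0.512 against 20.7, 15.7, 11.9 and 9.09 CPM (log2 fold change 6.10 ± 0.76, adjusted p = 0.000383). Mmp2, the gelatinase of stromal cells, did not pass at 13.8, 12.9 and 13.9 against 2.93, 2.09, 4.62 and 17.5 CPM (log2 fold change -1.01 ± 0.62, adjusted p = 0.248), and Timp3, an inhibitor bound to matrix, fell (log2 fold change -0.78 ± 0.17, adjusted p = 0.00653, but -0.13 with adjusted p = 0.607 by library totals alone).

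Genes of plasminogen activation and coagulation rose in 13 of 17 members, and Serpine2 fell (log2 fold change -0.78 ± 0.18, adjusted p = 0.00954, but -0.13 with adjusted p = 0.612 by library totals alone). Of these 17, 3 had at most 3 counts in every naïve library and entered the test through IM24h counts alone. Plaur, the urokinase receptor, stood at 0.253, 0.444 and 0.640 CPM in the naïve libraries and 10.1, 18.5, 19.97 and 6.06 CPM at IM24h (log2 fold change 4.89 ± 0.61, adjusted p = 0.000382), while its ligand Plau did not pass at 1.01, 3.11 and 3.45 against 10.4, 8.36, 4.898 and 4.49 CPM (log2 fold change 1.49 ± 0.53, adjusted p = 0.0603). Serpinb2, the inhibitor PAI-2, had 0 counts in naïve libraries and 0.880, 6.48, 17.3 and 6.06 CPM at IM24h (at least 11.5-fold, adjusted p = 0.00561). F3, tissue factor, was at 11.6, 16.9 and 11.1 against 78.5, 68.3, 66.8 and 33.3 CPM (log2 fold change 2.24 ± 0.31, adjusted p = 0.000616). F10, coagulation factor X, was at 0.506, 0.444 and 0.512 against 9.58, 18.5, 29.3 and 15.4 CPM (log2 fold change 5.17 ± 0.51, adjusted p = 0.000149). F7, factor VII, had 0 counts in all naïve libraries and 3.13, 7.63, 7.16 and 7.03 CPM at IM24h (at least 9.36-fold, adjusted p = 0.000715), but it also had 0 counts in the 3 IM3h libraries and counts in all IM72h libraries, so that mouse line and time cannot be told apart for it.

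Immediate early genes, transcribed within minutes of a stimulus, gave 12 higher and 1 lower among 23. Junb stood at 18.6, 12.2 and 20.3 against 181.999, 309, 230.0 and 209 CPM (log2 fold change 3.76 ± 0.26, adjusted p = 3.11e-05). Egr1 was at 17.2, 15.8 and 30.6 against 73.01, 78.9, 59.4 and 53.96 CPM (log2 fold change 1.64 ± 0.26, adjusted p = 0.00132). Fos was at 4.30002, 2.67 and 8.19 against 14.7, 10.04, 16.7 and 15.04 CPM (log2 fold change 1.45 ± 0.39, adjusted p = 0.0179), and all 3 were above the naïve range. Jund was the only member that fell (log2 fold change -0.51 ± 0.17, adjusted p = 0.0499, but 0.14 with adjusted p = 0.589 by library totals alone).

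Metallothioneins, which bind zinc, and targets of the oxidative stress factor Nrf2 rose in 11 of 17. Mt2 stood at 17.5, 8.67 and 31.7 against 358, 1265, 940.5 and 414 CPM (log2 fold change 5.25 ± 0.61, adjusted p = 0.000292). Mt1 was at 72.8, 56.9 and 95.4 against 371, 1242, 872 and 435 CPM (log2 fold change 3.28 ± 0.44, adjusted p = 0.000565), and libraries 2 and 3 were the highest for both. Hmox1, haem oxygenase 1, was at 1.77, 1.11 and 2.56 against 36.6, 47.5, 49.6 and 32.9 CPM (log2 fold change 4.46 ± 0.31, adjusted p = 3.11e-05). Nqo1, a quinone reductase that Nrf2 is known to induce, fell at 6.32, 8.44 and 9.72 against 2.54, 0.941, 4.14 and 3.395 CPM (log2 fold change -1.56 ± 0.49, adjusted p = 0.0372, but -0.91 with adjusted p = 0.178 by library totals alone).

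Nuclear genes of the respiratory chain fell in 50 of 87 tested members and 1 rose, with a median of -0.86, and by library totals alone 14 fell, 9 rose and the median was -0.23. In the tricarboxylic acid cycle and fatty acid oxidation 11 of 27 fell and 0 rose, at a median of -0.52. By library totals alone 8 rose and 3 fell, and the median was 0.12 against 0.66 for all genes. Sdhb, a subunit of succinate dehydrogenase, stood at 167, 143 and 202 against 23.1, 8.57, 39.6 and 86.9 CPM (log2 fold change -2.11 ± 0.56, adjusted p = 0.0180). Hadha, an enzyme of fatty acid oxidation, was at 135, 139.8 and 123 against 31.7, 41.3, 39.2 and 39.8 CPM (log2 fold change -1.80 ± 0.15, adjusted p = 6.47e-05). Ppargc1a, a coactivator of mitochondrial genes, was at 47.4, 44.7 and 42.5 against 22.5, 15.7, 19.4 and 22.9 CPM (log2 fold change -1.16 ± 0.18, adjusted p = 0.00130, but -0.51 with adjusted p = 0.0670 by library totals alone).

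Glycolysis and hypoxia genes gave 4 higher and 9 lower among 25, against 12 higher and 2 lower by library totals alone and 7 higher in a fit of all 4 groups. Hif1a, the hypoxia factor, rose at 34.4, 33.1 and 39.4 against 107, 153, 174 and 75.4 CPM (log2 fold change 1.83 ± 0.28, adjusted p = 0.00102), as did Slc16a3, a lactate exporter (log2 fold change 2.89 ± 0.59, adjusted p = 0.00495). Aldoa, aldolase, fell at 886, 854 and 838 against 254, 200.004, 310.2 and 352 CPM (log2 fold change -1.62 ± 0.20, adjusted p = 0.000371). Adm, adrenomedullin, a target of hypoxia, also fell, at 5.56, 5.999 and 7.03 against 0, 0.732, 1.601 and 1.46 CPM (log2 fold change -2.70 ± 0.83, adjusted p = 0.0333, but -2.07 with adjusted p = 0.0675 by library totals alone).

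Ribosome biogenesis genes rose in 15 of 23 and 0 fell, with Gnl3, nucleostemin, at 19.4, 22.2 and 30.4 against 62.7, 74.4, 106 and 50.1 CPM (log2 fold change 1.61 ± 0.27, adjusted p = 0.00200). For ribosome biogenesis, the count of higher genes was 7 without naïve library 3 and 8 without naïve library 1 or 2 or IM24h library 3. Cytosolic ribosomal proteins, many of which share reads with processed copies, gave 31 higher and 4 lower among 82, with a median of 0.45. For ribosomal proteins, library totals alone gave 58 higher and 0 lower, and the count of higher genes was 15 without naïve library 3, 17 without naïve library 2, 18 without naïve library 1 and 20 without IM24h library 1, and the count of lower genes was 2 without naïve library 1 and 7 without IM24h library 4. Of endoplasmic reticulum and integrated stress genes 8 of 19 rose and 0 fell, and by library totals alone 14 rose. Hspa5, the chaperone BiP, stood at 228, 229.5 and 293 against 945, 916, 1119 and 688 CPM (log2 fold change 1.87 ± 0.21, adjusted p = 0.000245). Glucocorticoid targets gave 5 higher and 2 lower among 12, with Fkbp5 at 15.9, 11.8 and 14.7 against 43.98, 46.2, 44.7 and 67.2 CPM (log2 fold change 1.83 ± 0.22, adjusted p = 0.000324). Of clock genes 3 higher (18.8%) and 1 lower (6.25%) among 16 were called, against 15.6% and 13.4% of all genes. Per2 was at 3.92, 8.44 and 4.48 against 40.8, 19.7, 15.1 and 37.7 CPM (log2 fold change 2.37 ± 0.43, adjusted p = 0.00278), and the hour at which tissue was taken is not given in the sources used here. For clock genes, library totals alone gave 8 higher and 0 lower, and the count of higher genes was 6 without IM24h library 3. A fit of all 4 groups gave 5 higher. Cholesterol synthesis gave 0 higher and 4 lower (19.0%) among 21, against 15.6% and 13.4% of all genes, with a median of -0.22 (0.42 by library totals alone). For cholesterol synthesis, library totals alone gave 8 higher and 1 lower, and the count of higher genes was 4 without IM24h library 4, and the count of lower genes was 1 without naïve library 3 and 2 without naïve library 1 or 2. A fit of all 4 groups gave 3 higher. In cholesterol synthesis the median less that of all genes was -0.24, against -0.13 without IM24h library 4.

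The study defines a list of genes of acute enteric gliosis, the reactive state of enteric glia after surgery. It joined published gliosis genes found in its glial pull-down with genes strongly induced or first detected there 3 h after manipulation. The pull-down is part of the same series, so that the direction of the list here is not independent evidence. The study states that almost none of these genes were upregulated in the muscularis at later times, by a measure other than the test used here. The copy of the list used here holds 242 genes and is not complete. Of it 241 genes are in the table and 214 were tested, of which 119 rose and 24 fell, with a median of 1.15 (1.14 with bounds), and by library totals alone 151 rose and 11 fell. Nes, nestin, an intermediate filament of reactive and immature glia, stood at 8.60003, 8.67 and 8.44 against 34.01, 30.2, 27.3 and 20.1 CPM (log2 fold change 1.70 ± 0.23, adjusted p = 0.000630). Among growth factors 8 higher and 5 lower calls were made in 25 tested. For growth factors, library totals alone gave 13 higher and 3 lower, and the count of higher genes was 4 without naïve library 1 or 3 and 5 without naïve library 2, and the count of lower genes was 3 without naïve library 2 or IM24h library 3. A test without a filter on low counts gave 5 higher. Inhba, the activin A chain, was at 11.3, 12.2 and 7.67 against 57.5, 66.9, 143 and 31.3 CPM (log2 fold change 2.86 ± 0.47, adjusted p = 0.00174). Ereg, epiregulin, was at 4.30002, 3.33 and 4.99 against 17.5, 16.2, 38.8 and 8.97 CPM (log2 fold change 2.26 ± 0.47, adjusted p = 0.00593). Gdnf, the glial cell line-derived neurotrophic factor, fell at 16.9, 33.1 and 22.6 against 11.8, 11.6, 14.2 and 15.4 CPM (log2 fold change -0.86 ± 0.25, adjusted p = 0.0286, but -0.20 with adjusted p = 0.564 by library totals alone), as did Bmp4, a morphogen, at 73.7, 50.9 and 61.01 against 20.5, 15.6, 13.8 and 18.9 CPM (log2 fold change -1.85 ± 0.20, adjusted p = 0.000221). In purinergic signalling 4 higher (26.7%) and 2 lower (13.3%) calls were made in 15, against 15.6% and 13.4% of all genes. The nucleotide receptor P2ry6 was higher (log2 fold change 1.91 ± 0.27, adjusted p = 0.000798) and P2rx2, an ATP-gated channel of enteric neurons, lower (log2 fold change -1.79 ± 0.56, adjusted p = 0.0351, but -1.15 with adjusted p = 0.129 by library totals alone).

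Genes were also ranked by fitted log2 fold change among called genes without overlap and with at least 5 CPM in the higher group. Where a group had at most 3 counts in every library the fitted value is no measured size, so that the order among such genes, and their place before others, is not a result. The first 15 rises included Clec4e, Serpinb2, Cxcl3, F7, Cxcl5, S100a8 and S100a9, which are given above. Among the others was Capn12, a calpain protease (chr7:28881422-28893563), with 0 counts in naïve libraries and 329.9, 263, 143 and 15.04 CPM at IM24h (at least 282-fold, adjusted p = 0.00153), of which library 4 was the lowest. On the scale of all 14 libraries it was at 12.9 ± 20.04 CPM (SD, n = 3) at IM3h and 185 ± 134 CPM (SD, n = 4) at IM72h. Its annotated gene shares 316 bases with Actn4 on the opposite strand, whose mean was 343 CPM in naïve and 233 CPM at IM24h libraries (adjusted p = 0.357), and reads of the 2 genes cannot be told apart unless strand was used in counting. Clec4d, a lectin of myeloid cells, rose (at least 10.8-fold, adjusted p = 0.00300). Mefv, the inflammasome protein pyrin, rose (at least 8.53-fold, adjusted p = 0.000518), and so did Olr1, a receptor for oxidised lipoprotein (at least 8.74-fold, adjusted p = 0.0105). Further members were Ceacam2, Gm22972, which lies inside Dpep2, and Gm13625, which overlaps Ssb and Mettl5.

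The first 15 falls by this ranking held Gm15536 (at least 117-fold, adjusted p = 2.69e-05) and A530016L24Rik (at least 17.98-fold, adjusted p = 0.000715), whose IM24h libraries all had 0 counts. Gm15536 also had 0 counts at IM72h and counts in all IM3h libraries, so that labelled line and time cannot be told apart for it. Thrsp, Retn and Fasn of fat synthesis and storage are given above, and Orm1, an acute phase glycoprotein, fell at 11.003, 5.33 and 6.91 against 0, 0.732, 0.753 and 0.242 CPM (log2 fold change -4.11 ± 0.79, adjusted p = 0.00381). Cdo1, which oxidises cysteine, was at 51.1, 50.7 and 73.9 against 4.98, 0.314, 2.35 and 3.15 CPM (log2 fold change -4.43 ± 0.52, adjusted p = 0.000311). Eno3, the enolase of muscle, was at 19.5, 20.4 and 14.7 against 0.0977, 0, 1.22 and 1.46 CPM (log2 fold change -4.71 ± 0.77, adjusted p = 0.00161). Stab2, a hyaluronan receptor of sinusoidal endothelium, was at 5.69, 6.89 and 5.12 against 0, 0, 0 and 0.728 CPM (log2 fold change -5.03 ± 1.12, adjusted p = 0.00795). Kcnip1, a partner of potassium channels whose gene overlaps Kcnmb1 on the opposite strand, was at 15.8, 10.7 and 12.9 against 0, 0, 0.942 and 1.82 CPM (log2 fold change -4.27 ± 0.92, adjusted p = 0.00677). Tceal6, Myl4, C1qtnf3, the pseudogene Amd-ps3 and Iglc1, an immunoglobulin light chain, completed the list. Iglc1 stood at 57.8, 4.22 and 4.35 CPM in naïve libraries, so that library 1 carried its mean, and counts of Amd-ps3 and Iglc1 may be shared with near-identical copies.

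Comparison with IM72h, which the labels give the same mouse line, and with IM3h shows where IM24h stands among the time points. These values come from 1 fit of all 14 libraries with 17919 genes tested, so group means differ slightly from those above, and the 3 comparisons share the IM24h libraries. Against IM72h 3932 genes were higher (21.9%) and 3769 lower (21.0%) at IM24h, so that 43.0% were called, and against IM3h 3174 were higher (17.7%) and 3356 lower (18.7%), so that 36.4% were called. The balance of the counts depends on the scaling. By library totals alone 8871 genes were higher and 870 lower than at IM3h, and 5035 higher and 2142 lower by totals without AY036118 and the mitochondrial genes, which gave 4747 higher and 3019 lower against IM72h.

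Among 18 cytokines 9 were higher and 3 lower at IM24h than at IM72h, and among 15 CC chemokines 7 were higher and 3 lower. Il6 had means of 0.0807, 7.18, 6.37 and 0.804 CPM in naïve, IM3h, IM24h and IM72h libraries (log2 fold change 2.98 ± 0.50, adjusted p = 0.000169 for IM24h against IM72h). Cxcl1 had means of 0.377, 55.7, 21.7 and 2.12 CPM and was lower at IM24h than at IM3h (log2 fold change -1.36 ± 0.40, adjusted p = 0.0149). Neutrophil genes were higher at IM24h than at IM3h for 9 of 16 members and lower for 0, and S100a9 was at 13.5 ± 1.47 CPM at IM3h and 16.9 ± 10.6 CPM at IM72h (SD, n = 3 and 4).

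Immediate early genes were lower at IM24h than at IM3h in 23 of 24 members and 0 were higher, with Egr1 at 415 CPM at IM3h and 63.6 CPM at IM24h (log2 fold change -2.70 ± 0.23, adjusted p = 6.27e-07). Of the gliosis list 21 were higher and 124 lower than at IM3h among 229, and 103 higher and 28 lower than at IM72h. Vip was higher at IM24h than at IM3h (log2 fold change 1.55 ± 0.20, adjusted p = 2.75e-05) and IM72h (log2 fold change 1.91 ± 0.18, adjusted p = 1.09e-06).

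Smooth muscle genes were lower at IM24h than at IM3h in 18 of 24 members with 0 higher, and lower than at IM72h in 14 with 3 higher. Tpm2 had means of 5193, 4801, 851 and 3708 CPM over the 4 groups in order of time (against IM72h log2 fold change -2.12 ± 0.18, adjusted p = 2.75e-07). Chrm2 took another course, with means of 483, 172, 155 and 57.8 CPM, so that its lowest group was IM72h (log2 fold change 1.42 ± 0.16, adjusted p = 3.71e-06). Adipoq was at 45.9 CPM at IM3h and 4.497 CPM at IM24h (log2 fold change -3.38 ± 0.56, adjusted p = 0.000221).

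Genes of cell division also differed between times. Replication genes were higher at IM24h than at IM3h in 15 of 27 and lower than at IM72h in 9 with 1 higher, and Mcm2 had means of 3.16, 22.8 and 30.9 CPM at IM3h, IM24h and IM72h (against IM72h log2 fold change -0.43 ± 0.19, adjusted p = 0.0761). Mitosis genes were lower at IM24h than at IM72h in 23 of 26 with 0 higher, and Mki67 had means of 7.399, 7.97 and 61.2 CPM (against IM72h log2 fold change -2.94 ± 0.22, adjusted p = 1.20e-07). Resident macrophage genes were lower than at IM72h in 9 of 17 with 0 higher, with C1qa at 569 CPM at IM72h (log2 fold change -1.72 ± 0.14, adjusted p = 2.14e-07). Dendritic cell and MHC class II genes were lower in 6 of 15 with 1 higher.

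**Figure D5:**
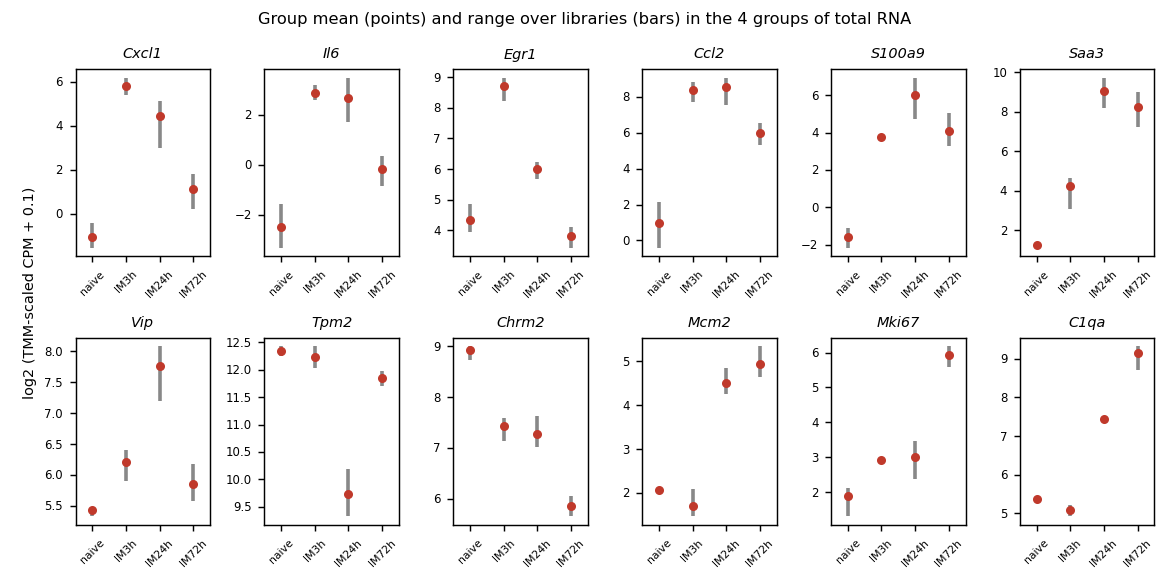
Group mean (points) and range over libraries (grey bars) of 12 genes in naïve (3), IM3h (3), IM24h (4) and IM72h (4) libraries as log2 of CPM scaled over all 14 libraries + 0.1, with an axis of its own for each gene. The means of Saa3, S100a9 and Vip are highest and that of Tpm2 is lowest at IM24h, with ranges of Saa3 that overlap those of IM72h, while Egr1 and Cxcl1 are highest at IM3h, and Mki67 and C1qa are highest at IM72h.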

How the data were processed

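Total RNA of the muscularis externa was made into QuantSeq libraries, which read the 3′ end of transcripts as 50-base single reads. The authors trimmed reads with cutadapt, aligned them to mm10 with STAR and counted them on Ensembl transcripts within Partek Flow. They deposited estimated counts (expected counts) per gene and per transcript, of which 31.0% of the gene values are not whole and no gene has a total under 10. Tables of the authors' own comparisons, with fold changes and p-values, were not used. Libraries are rows that carry the group only, and library numbers follow the order of names. Duplicate libraries were looked for in 9 pairs within the groups, and none was found.

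Counts were rounded, filtered with filterByExpr, scaled by TMM and tested two-sided with the quasi-likelihood test of edgeR 4.0.16 (limma 3.58.1, R 4.3.3), with Benjamini-Hochberg adjustment over all genes tested and a threshold of 0.05. DESeq2 1.42.0 served as an alternative. The test was checked on simulated data. Tables and plots used Python 3.11.15, numpy 2.4.6, pandas 2.3.3 and matplotlib 3.10.9. Gene lists were described by counts and medians alone. Named are the members with the largest change in each direction in a list, the members that define it, genes the study names for this tissue, and the first 15 rises and falls by fitted log2 fold change. Some genes are not reported here. Members and lists were chosen with earlier results of these data known. A fold against a group with at most 3 counts in every library is a lower bound, with 3 counts per library as the floor, and covers counting error only. Annotated neighbours overlap 36 of the named genes in GENCODE M21, and whether strand was used in counting is not given in the sources used here.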

Additional observations from a re-analysis of the deposited data

Results flagged for a closer look

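Among 214 named genes, 17 had 1 IM24h library whose distance to the nearest of the other 3 exceeded Dixon's critical value for 4 samples as a share of the whole range, and chance alone flags about 5% of groups. Library 4 was the one apart in 12 of the 17. It was the highest library for C3 with 317 CPM against 116 to 131 in the other libraries, Ccl8 with 32.1 CPM against 0.627 to 4.89 in the other libraries, Cx3cr1 with 40.98 CPM against 21.1 to 23.8 in the other libraries and Fkbp5 with 67.2 CPM against 43.98 to 46.2 in the other libraries. It was also the highest for Mmp2 with 17.5 CPM against 2.09 to 4.62 in the other libraries, Msln with 19.5 CPM against 1.27 to 3.01 in the other libraries, Stab2 with 0.728 CPM against 0 in the other libraries, Tceal6 with 0.728 CPM against 0 in the other libraries and Upk3b with 27.2 CPM against 1.78 to 5.27 in the other libraries. It was the lowest for Bst2 with 39.4 CPM against 46.6 to 47.4 in the other libraries, Osm with 2.06 CPM against 4.89 to 5.33 in the other libraries and Tnc with 495 CPM against 904 to 967 in the other libraries. Msln and Upk3b belong to the mesothelium list, and C3, Ccl8, Cx3cr1, Mmp2 and Msln were not called by the test against naïve libraries.

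Of the other genes, library 1 was apart for F7 with 3.13 CPM against 7.03 to 7.63 in the other libraries and Myl4 with 0.977 CPM against 0 to 0.105 in the other libraries. Library 3 was the highest for Csf2rb with 48.6 CPM against 15.996 to 20.98 in the other libraries and Nos2 with 5.37 CPM against 0.970 to 1.57 in the other libraries. Library 2 was the highest for Amd-ps3 with 1.15 CPM against 0 to 0.0942 in the other libraries.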

How the results depend on the processing

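No paired analysis was possible because the names of the libraries carry no replicate number in the count table. The sample labels are numbered, but these numbers could not be matched to the libraries of the count table, which carry the group only. Library totals without TMM factors gave 6281 genes higher and 720 lower than naïve, and 8871 higher and 870 lower than IM3h, since the TMM factors of 0.683 to 0.844 in naïve and 1.18 to 1.25 in IM24h libraries are then left out. On that scale 19 of the 174 calls of named genes were lost and Jund turned to a log2 fold change of 0.14. Totals without AY036118 and the mitochondrial genes, an alternative chosen after seeing the data, gave 5035 genes higher and 2142 lower than IM3h, and with it 7 calls of named genes were lost. For the remaining settings, which were the scaling of DESeq2, upper quartile scaling, the Wald test of DESeq2, no filter on low counts, a fit of all 4 groups and the transcript table, counts over all genes against naïve lay within 1.5 times of those given, counts in gene lists that moved by more stand beside them in the report apart from small counts, and the adjusted p of 0 to 3 named calls per setting rose above the threshold.

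Leaving out 1 library at a time gave 1491 to 3059 genes higher and 1299 to 2913 lower than naïve, with the smallest counts without naïve library 1 and the largest without IM24h library 4, and fewer libraries enter these fits. Of 174 calls of named genes 150 were kept without each library, and the other 24 are named in the report with the range of their adjusted p. Medians of lists relative to all genes moved by more than the spread between libraries for 16 of 54 lists. These spanned 1.33 to 1.95 for leukocyte adhesion on endothelium, 1.65 to 2.65 for CXC chemokines, 1.95 to 3.19 for alternative activation, 0.60 to 0.81 for endothelium, 0.19 to 0.58 for prostanoid, leukotriene and nitric oxide synthesis, 0.29 to 0.46 for cytosolic ribosomal proteins, 0.42 to 0.77 for endoplasmic reticulum and integrated stress and 0.089 to 0.23 for the genes of the Cre drivers and the tagged locus. The span was -0.44 to 0.83 for red blood cell, 1.47 to 1.73 for cytokine receptors, 2.18 to 2.99 for acute phase and STAT3 targets, 2.29 to 3.22 for innate receptors and inflammasome, 1.31 to 2.75 for chemokine receptors, 1.51 to 1.74 for DNA replication, 0.14 to 0.49 for growth factors and -0.79 to -0.53 for enteric neuron. With other settings, medians moved for acute phase and STAT3 targets without a filter (2.59), leukocyte adhesion on endothelium in the fit of all 4 groups (1.36) and DNA replication in the transcript table (1.64), and the cause was not tested. The difference in the number of genes detected with at least 1 count, IM24h less naïve, was -1629.5 and spanned -2078 to -1373 without 1 library, and with a minimum of 5 counts it turned to 682 more genes at IM24h. The difference in the share of AY036118 spanned -22.6 to -13.9 percentage points without 1 library, where an exact test of 2 against 4 or 3 against 3 libraries cannot pass the threshold. At this depth, a simulation of 2-fold changes recovered 12% and of 4-fold changes 65% of 100 changed genes each among 16328, with 8 false calls, which describes that simulation with its few changed genes and not the recovery in these libraries.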

Other observations

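Red blood cell genes gave 0 calls among 5 tested. Besides F7, the genes with at least 10 counts in each of the 8 libraries labelled with the Sox10 line and at most 3 in each of the 6 labelled Gfap-cre were 4930403D09Rik, C430002N11Rik, Cenph, Fignl1, Gm44751, Gm5150, Kifc1 and Map4k1, of which Cenph and Kifc1 are genes of cell division. They were chosen after their values were seen, and labelled line and time after surgery cannot be told apart for them.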
